A study of Mus musculus with 67 samples.

Results

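The elements annotated to Nkx6-1 and Nkx6-2 were followed in 67 CaTS-ATAC samples, in which fixed cells were transposed, stained for intracellular transcription factors and sorted. The deposited annotation places 47 elements nearest to the TSS of either gene, and 44 of them have values among the 111638 elements of the series. Of these, 29 were annotated to Nkx6-1 and 15 to Nkx6-2, against a median of 3 per gene, and 268 of 20787 genes had as many elements as Nkx6-1 or more. The nearest TSS does not show which gene an element regulates.

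All samples came from the mouse ES cell line HM1. Neuromesodermal progenitors (NMPs) were taken at day 3, before SAG, an agonist of the Hedgehog signal transducer Smoothened, was added (n = 3). Neural progenitors (NPs) were taken at days 4, 5 and 6 in RA with SAG at 0, 10, 100 or 500 nM, and sorted as p0-1 (0 and 10 nM), p2 (10 and 100 nM), pMN (100 and 500 nM) or p3 (100 and 500 nM), with 2 or 3 replicates per type and concentration. All are differentiations of a single cell line. NKX6.1 protein was itself a sort marker: p0-1 cells were PAX6+ and NKX6.1-, p2 cells were PAX6+ and NKX6.1+, pMN cells were OLIG2+, and p3 cells were NKX2.2+ and OLIG2-. Comparisons with p0-1 at the Nkx6-1 locus are therefore with cells chosen for the absence of its product, and those between p0-1 and p2 are between cells chosen for its absence and its presence, while pMN and p3 were chosen by OLIG2 and NKX2.2. Cell type and SAG concentration cannot be told apart except where a concentration is shared. The gate used for NMPs is not given in the sources used here.

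NKX6.1 and NKX6.2 are homeodomain transcription factors that act mainly as repressors in the ventral neural tube. NKX6.1 is made in the p2, pMN and p3 domains, where it keeps the p0 and p1 gene DBX2 and, with its paralogue, DBX1 out of the ventral cells, and it is needed for motor neuron progenitors. NKX6.2 has a related and partly overlapping role, and in mouse is best known from the p1 domain. Hedgehog signaling acts through GLI proteins, and accessible chromatin marks sites where such factors can bind.

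Elements are named by gene and by the distance in bp from their center to the TSS, positive in the direction of transcription. Both genes lie on the minus strand of mm10, Nkx6-1 at chr5:101658139-101664996 and Nkx6-2 at chr7:139579376-139582797. At Nkx6-1, 27 of 29 elements were intergenic, 27 were downstream, at distances of up to 400112 bp. At Nkx6-2, 10 of 15 lay in introns of Inpp5a, the convergently placed neighbour that encodes an inositol phosphatase, and none was further than 89723 bp.

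The sequences of 5 element centers (300 bp, GRCm38, plus strand) are given because these elements showed the largest changes or hold the motif matches described next. In the first pair, Nkx6-1 +367191 (chr5:101297371-101297670) and Nkx6-2 +51919 (chr7:139530729-139531028), capitals mark bases that are identical in an alignment of both.
Nkx6-1 +367191: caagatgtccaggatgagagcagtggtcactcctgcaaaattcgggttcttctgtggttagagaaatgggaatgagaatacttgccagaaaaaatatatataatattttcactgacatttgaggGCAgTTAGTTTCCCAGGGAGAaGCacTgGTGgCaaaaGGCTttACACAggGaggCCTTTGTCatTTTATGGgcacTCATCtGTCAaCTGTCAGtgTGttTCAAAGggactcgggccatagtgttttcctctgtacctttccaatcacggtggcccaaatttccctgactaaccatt
Nkx6-2 +51919: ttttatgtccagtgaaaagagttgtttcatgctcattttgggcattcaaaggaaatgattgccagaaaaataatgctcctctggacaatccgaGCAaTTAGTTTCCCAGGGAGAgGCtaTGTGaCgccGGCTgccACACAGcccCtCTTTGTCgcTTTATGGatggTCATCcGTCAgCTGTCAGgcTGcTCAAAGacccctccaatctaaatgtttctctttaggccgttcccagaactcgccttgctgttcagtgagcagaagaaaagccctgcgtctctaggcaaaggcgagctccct

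These were the elements with the largest rise from NMPs at each gene, and their centers were more alike than those of any other of the 435 pairs between the loci. The local alignment, without masking of repeats, ran over 107 columns on the same strand, from chr5:101297495-101297599 and chr7:139530822-139530923. In it 76 of 100 aligned bases were identical and 7 columns were gaps. Its score was 48, also with repeats masked. The next pair had 29 and the median was 19, both with repeats masked. The likeness was found after the sequences and accessibility were seen, and is a description.

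In the other centers, Nkx6-1 +140408 (chr5:101524154-101524453), Nkx6-1 +167285 (chr5:101497277-101497576) and Nkx6-2 +19429 (chr7:139563219-139563518), capitals mark matches to short motifs on either strand.
Nkx6-1 +140408: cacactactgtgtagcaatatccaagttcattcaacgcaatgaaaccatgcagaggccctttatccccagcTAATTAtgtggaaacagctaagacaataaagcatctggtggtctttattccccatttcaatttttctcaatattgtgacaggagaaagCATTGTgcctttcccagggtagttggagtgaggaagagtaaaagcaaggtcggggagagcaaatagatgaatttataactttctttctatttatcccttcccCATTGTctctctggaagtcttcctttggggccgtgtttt
Nkx6-1 +167285: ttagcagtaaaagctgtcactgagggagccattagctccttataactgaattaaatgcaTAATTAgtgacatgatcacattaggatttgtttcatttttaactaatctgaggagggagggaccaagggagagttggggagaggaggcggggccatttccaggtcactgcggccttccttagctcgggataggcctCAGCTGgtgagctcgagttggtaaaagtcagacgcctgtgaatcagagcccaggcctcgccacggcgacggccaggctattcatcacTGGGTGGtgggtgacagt
Nkx6-2 +19429: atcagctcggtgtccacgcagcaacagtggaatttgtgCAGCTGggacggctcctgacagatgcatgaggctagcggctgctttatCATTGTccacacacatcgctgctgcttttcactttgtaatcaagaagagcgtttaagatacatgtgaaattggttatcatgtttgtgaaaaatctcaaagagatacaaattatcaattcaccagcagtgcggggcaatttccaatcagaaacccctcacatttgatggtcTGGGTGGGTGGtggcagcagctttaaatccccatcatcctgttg

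A motif for GLI (CCACCCA) was found in 4 of 29 Nkx6-1 centers, 13.8%, and 2 of 15 Nkx6-2 centers, 13.3%, and in 7.75% of all 111638 centers of the same length. The letters read by many homeodomain factors (TAATTA) were in 3 Nkx6-1 centers, 10.3%, and 0 of 15 Nkx6-2 centers, against 7.85% of all. SOX letters (CATTGT) were in 9 and 4 centers, 31% and 26.7%, against 21.1%. The E-box CAGCTG was in 6 and 2, 20.7% and 13.3%, against 21.1%. FOX letters (TGTTTAC) were in 1 and 0, against 4.96% of all centers, and NKX2 class letters (CACTTNA) in 3 and 0, against 15%. Nkx6-1 +167285 held GLI, homeodomain and E-box letters, Nkx6-1 +140408 a homeodomain and 2 SOX matches, and Nkx6-2 +19429 a SOX match, an E-box and 2 GLI matches that overlap by 3 bases. No other motif matches overlapped in the printed centers. A match shows letters in the window and not binding.

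**Figure D1:**
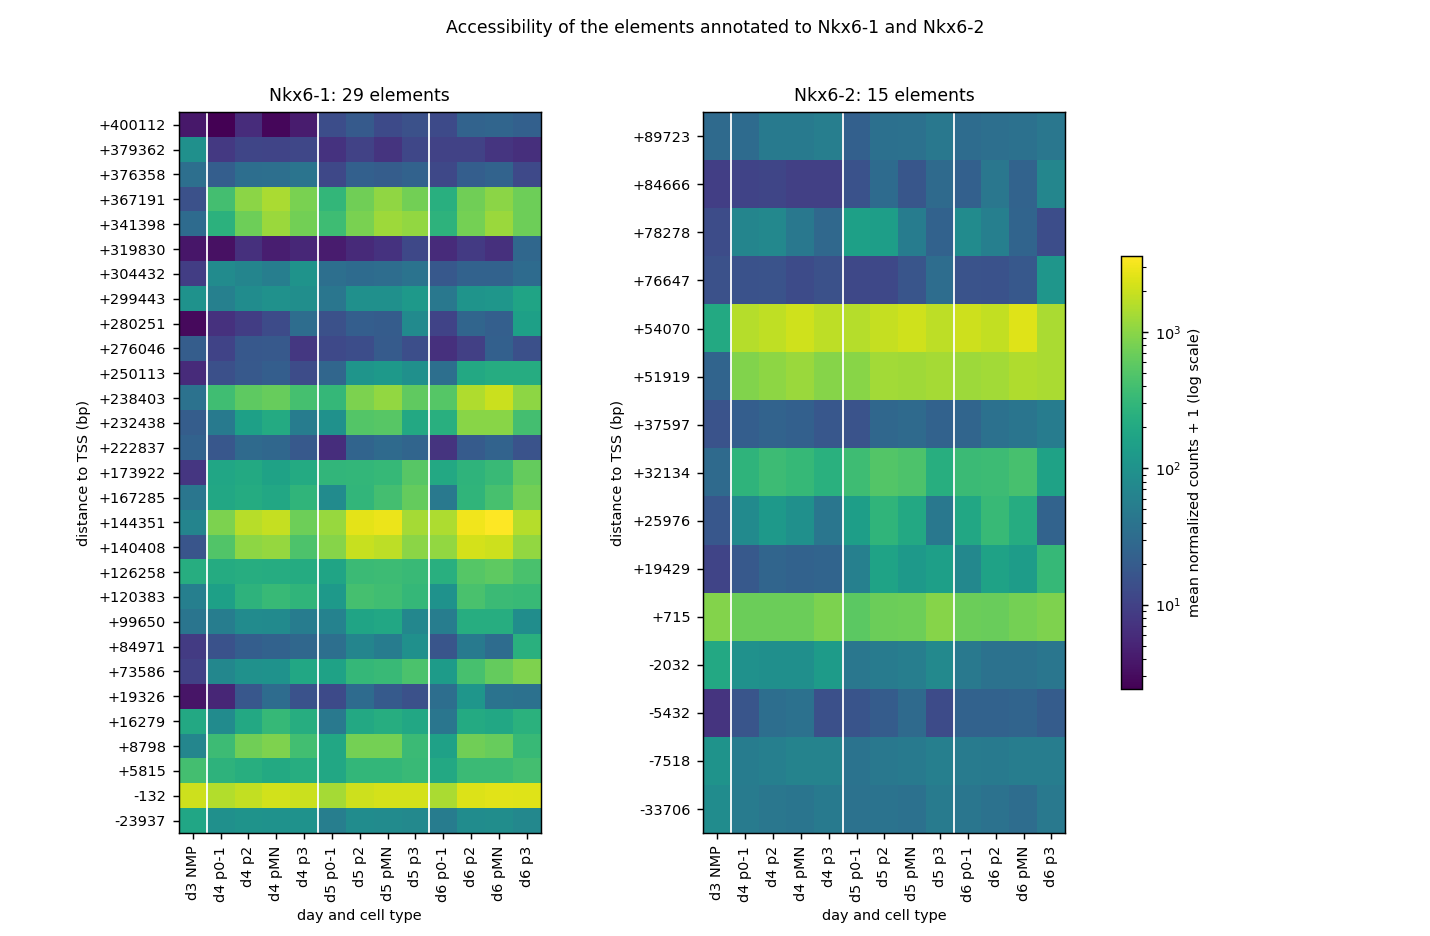
Mean normalized counts, plus 1 on a log color scale, of the 29 Nkx6-1 and 15 Nkx6-2 elements (rows, by distance to the TSS in bp) in NMPs and the NP types by day (columns). The row at -132 is bright in every column, while +367191, +144351 and +140408 at Nkx6-1 and +54070 and +51919 at Nkx6-2 are darker in NMPs than in all NPs.

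Levels are given in normalized counts, that is reads in the element divided by the size factor of the sample, recovered from the deposited log2 values. Over all samples the elements had means between 6.39 and 2008 normalized counts, and 16 Nkx6-1 and 5 Nkx6-2 elements had a mean above 100. Per kb of element, Nkx6-2 +54070 was the most open with 2043 counts per kb, followed by Nkx6-2 +51919 with 992 and Nkx6-1 +140408 with 841. The element over the Nkx6-1 start site, which is 4266 bp wide, had 471 counts per kb. Folds below are differences of the log2 values ± SE. An element was called, and is said to have risen or fallen, at an adjusted p under 0.01 (limma, Benjamini-Hochberg over all elements tested) and a fold above 2. Tests were limited to elements averaging over 100 normalized counts in a comparison: 28 members passed in some comparison and 24 of them were called at least once, while 16 passed in none. Elements averaging under 100 in the lower group passed only through the higher group.

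The labelled types were checked at the most accessible element of genes that mark them, which gives accessibility and not expression. An element of Cdx2, a caudal factor of NMPs, had 3686 normalized counts in NMPs and 264 to 702 in NPs, and those of T, Fgf8 and Nkx1-2 were also highest in NMPs. That of Wnt3a was not, with 355 in NMPs and 538 and 682 in p0-1 at days 5 and 6. Between the NP types at day 6, an element of Dbx1 was highest in p0-1 (2549, against 631 to 1055), of Foxn4 in p2 and pMN (669 and 652, against 177 and 159), of Olig2 in pMN (4797, against 1812 to 3050) and of Foxa2 in p3 (1454, against 179 to 408). Elements of Irx3 and Irx5, listed as p2 markers, were highest in p0-1 (3014 and 5348, against 2566 and 4725 in p2). Nkx2-2, the p3 sort marker, had 0 annotated elements, and Sim1 did not set p3 apart (638, against 566 to 670) nor did Nkx2-9 (1914, against 2091 in pMN). An element of the floor plate gene Shh had 1487 in p3 and 528 to 783 in the other types at day 6, while the floor plate gene Ntn1 was lowest in p3 (1623, against 1996 to 2412). Elements of the neuronal genes Tubb3 and Elavl3 had 2135 and 1180 in p2, 1749 and 1299 in pMN and 1362 and 852 in p3 at day 6, against 1233 and 844 in p0-1, while that of Stmn2, the third neuronal gene of the list, had 340.1, 272 and 159 against 188. NPs were gated as SOX2+, a progenitor marker that is lost as neurons form. The part of other cell types in the results below was not tested.

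The start sites of both genes were open in every type, and no difference there reached 2-fold between types. Nkx6-1 -132 (chr5:101662711-101666976), a promoter element, had 2028, 2184 and 1993 normalized counts in the NMPs. At day 6 it had 1221, 1134, 1495, 1625 and 1679 in p0-1, 2238 to 2623 (median 2455) in p2, 2671, 2572, 2571 and 2530 in pMN, and 2529, 2475, 2570 and 2510 in p3. Every p0-1 sample lay below every sample of the other types, and p2, pMN and p3 lay close together. The folds over p0-1 were 0.77 ± 0.10 for p2, 0.86 ± 0.11 for pMN and 0.83 ± 0.11 for p3, with adjusted p of 0.00065, 0.00032 and 0.00013 (limma), all under the 2-fold threshold, so that the element was called in no comparison.

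Nkx6-2 +715 (chr7:139580910-139583254), in the first intron of the gene, had 1047, 928 and 795 normalized counts in NMPs and was also called in no comparison. At day 6 it had 543, 494, 839, 935 and 679 in p0-1, 587 to 765 (median 678) in p2, 821, 777, 807 and 724 in pMN, and 874, 817, 932 and 847 in p3, so that p0-1 overlapped each other type, while every p3 sample lay above every p2 sample. At day 5 the p3 samples (969, 1003, 874, 1044 and 812) lay above p0-1 (366 to 674, median 619), with a fold of 0.73 ± 0.14 and an adjusted p of 0.00078 (limma). The pMN minus NMP fold at day 4, -0.39 ± 0.12, was near the shift of all elements and became 0.03 when each sample was centered on its median.

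Distal elements of both genes opened between NMPs and day 4. The median fold of all tested elements in this step was -0.40, -0.49, -0.47 and -0.45 for p0-1, p2, pMN and p3, so that folds lie higher, by a similar amount, once samples are centered. Nkx6-1 elements rose in 9 of 14 tested in p0-1 and in 10 of 15 in each of p2, pMN and p3, where 18.3%, 20.7%, 21.2% and 17.8% of all elements tested rose. At Nkx6-2, 3 of 5 tested rose in each type. Median folds were 2.08, 2.34, 2.78 and 2.50 at Nkx6-1 and 2.86, 3.08, 3.06 and 2.73 at Nkx6-2. In all, 16 of 21 members tested were called in at least 1 of the types, against 54.5% of all elements. The 4 comparisons share the NMP samples. Also, 1 Nkx6-1 element fell in p0-1 and 1 Nkx6-2 element fell in p2 and in pMN, where 23.1%, 27.2% and 27.1% of all elements tested fell.

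Nkx6-1 +367191 (chr5:101296936-101298104) had 8.49, 5.40 and 26.9 normalized counts in NMPs. At day 4 it had 310 to 537 (median 406) in p0-1, 781 to 1200 (median 1009) in p2, 1243 to 1546 (median 1429) in pMN, and 559, 605, 1024, 866 and 1115 in p3. No NMP sample came near any NP sample, and p0-1, the lowest NP type, was already at a mean of 407. The folds over NMPs were 4.18 ± 0.27, 5.47 ± 0.23, 5.96 ± 0.21 and 5.17 ± 0.27, with adjusted p of 1.0e-08, 2.0e-11, 1.2e-12 and 3.0e-11 (limma), and 4.59, 5.91, 6.38 and 5.62 with samples centered.

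Nkx6-2 +51919 (chr7:139530308-139531448), the element whose sequence aligned with it, is in intron 8 of Inpp5a. It had 41.2, 9.44 and 22.6 normalized counts in NMPs, and at day 4 it had 680 to 1084 (median 939) in p0-1, 884 to 1198 (median 1029.5) in p2, 1122 to 1281 (median 1216) in pMN, and 868, 954, 1046, 966 and 925 in p3. At day 4 p0-1, p2 and p3 overlapped, and the pMN samples all lay above those of p0-1 and p3. The folds were 4.75 ± 0.26, 4.96 ± 0.22, 5.18 ± 0.21 and 4.85 ± 0.22, with adjusted p of 2.3e-09, 3.4e-11, 4.7e-12 and 5.2e-12 (limma). Between types at day 4, pMN minus p0-1 was 1.78 ± 0.13 at Nkx6-1 +367191, with an adjusted p of 7.1e-07, whereas Nkx6-2 +51919 was called between types at none of days 4, 5 and 6. This difference between the elements was not tested.

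Other elements rose in the same step. Nkx6-1 +140408 (chr5:101523582-101525024) went from 13.3, 16.2 and 17.2 normalized counts in NMPs to 840 to 1362 (median 1193) in pMN, a fold of 5.39 ± 0.15. Nkx6-1 +341398 (chr5:101322750-101323876) had 27.9, 9.44 and 52.8 in NMPs, and its folds were 2.79 ± 0.37 in p0-1 and 5.00 ± 0.26 in pMN. Nkx6-2 +54070 (chr7:139528292-139529162), the most open per kb and also in intron 8 of Inpp5a, had 238, 163 and 210.0 in NMPs and 1472 to 2292 over the NP samples of p0-1, p2 and pMN at day 4, with folds of 2.89 ± 0.15 in p0-1 and 3.30 ± 0.11 in pMN. Nkx6-2 +32134 had folds of 3.21 ± 0.17 in p2 and 2.73 ± 0.19 in p3. Each of these had an adjusted p of 1.3e-05 or below (limma).

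Falls were few. Nkx6-1 +16279 (chr5:101647274-101649590) had 238, 213 and 140.0 normalized counts in NMPs and 44.8 to 137 (median 81.7) in p0-1 at day 4, a fold of -1.21 ± 0.28 with an adjusted p of 0.0018 (limma). Nkx6-2 -2032 (chr7:139584435-139585224), just upstream of the gene, had 247, 219 and 127 in NMPs and 71.7 to 103 in p2, a fold of -1.01 ± 0.20 with an adjusted p of 0.00024. With samples centered, these were -0.80 and -0.57 and were no longer called, and without replicate 1 of each condition the adjusted p were 0.021 and 0.0078 with folds of -0.96 and -0.81, also not called. Nkx6-1 +16279 was not called without replicate 2 either (0.031). In these comparisons the NP samples averaged under 100, so both elements passed the filter only through the NMPs.

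**Figure D2:**
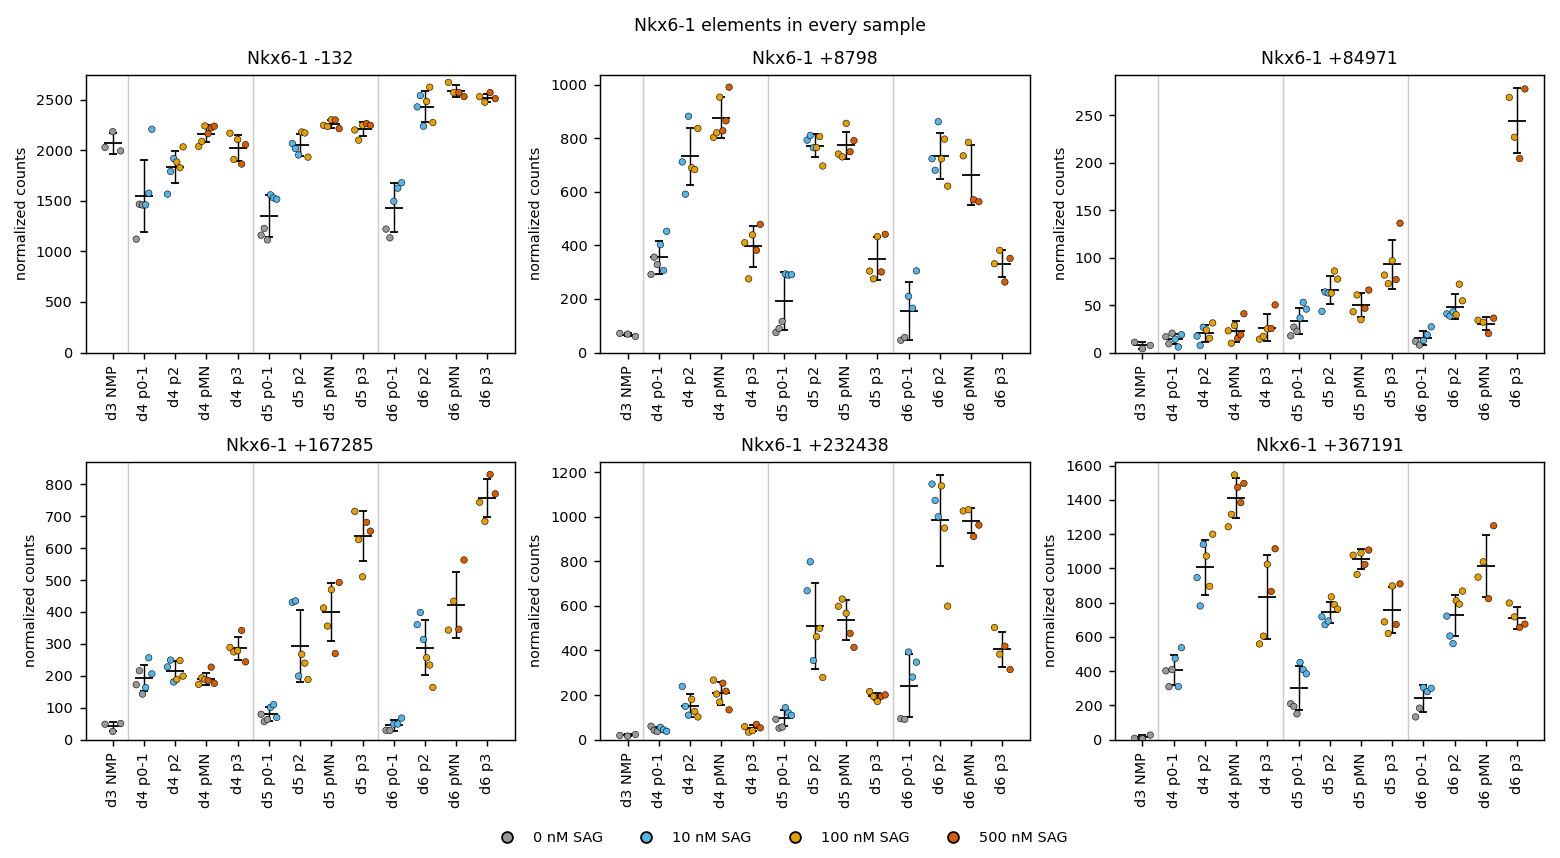
Normalized counts of 6 Nkx6-1 elements in every sample, colored by SAG concentration, with horizontal bars for the mean and whiskers for the SD of each day and cell type. The promoter element at -132 stays between 1114 and 2671 throughout, +84971 is high in p3 at day 6, and +167285 falls with day in p0-1 while it climbs in pMN and p3.

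Many Nkx6-1 elements were higher in p2, pMN and p3 than in p0-1. At days 4, 5 and 6, elements higher in p2 than in p0-1 numbered 2 of 13, 12 of 16 and 14 of 17 tested, against 0.185%, 3.07% and 4.67% of all elements tested. For pMN these were 8 of 14, 12 of 16 and 13 of 17, against 3.32%, 6.81% and 9.28%, and for p3 3 of 14, 7 of 15 and 11 of 17, against 3.3%, 7.33% and 12%. None was lower. With replicate numbers blocked, the p2 count at day 4 was 5, and over all elements 168 of 29657 were higher, against 55 without the block. The p2 counts rested on few samples: leaving out replicate 1 of each condition gave 0, 1 and 1 at days 4, 5 and 6, replicate 2 gave 0, 2 and 0, and replicate 3 gave 0, 11 and 12, and over all elements the day 6 calls went from 1692 to 35, 7 and 2461. The p2 calls over all elements went from 56 to 0, 1 and 0 at day 4 and from 1220 to 17, 54 and 1619 at day 5. For pMN at day 6 the count was 13, 5 and 6, and for p3 it was 12, 6 and 8, while at day 4 that of p3 was 2, 2 and 1. Higher calls over all elements went from 3002 to 3227, 991 and 1533 for pMN at day 6. For p3 they went from 3896 to 4064, 2951 and 3071 at day 6, and from 971 to 873, 883 and 462 at day 4. Over both genes and all pairs of types, 8 of 22, 16 of 25 and 20 of 25 members tested were called, against 11.5%, 26.8% and 33.7% of all elements. Median folds at day 6 were 1.59, 1.98 and 1.47, while those of all elements tested were -0.10, -0.08 and -0.08. The comparisons share the p0-1 samples. Between pMN and p2, 0 of 15, 0 of 17 and 0 of 18 Nkx6-1 elements were called by limma at days 4, 5 and 6, with 10, 5 and 7 at an unadjusted p under 0.05 and also 0 with voom, where 0.277%, 2.31% and 3.96% of all elements were called.

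**Figure D3:**
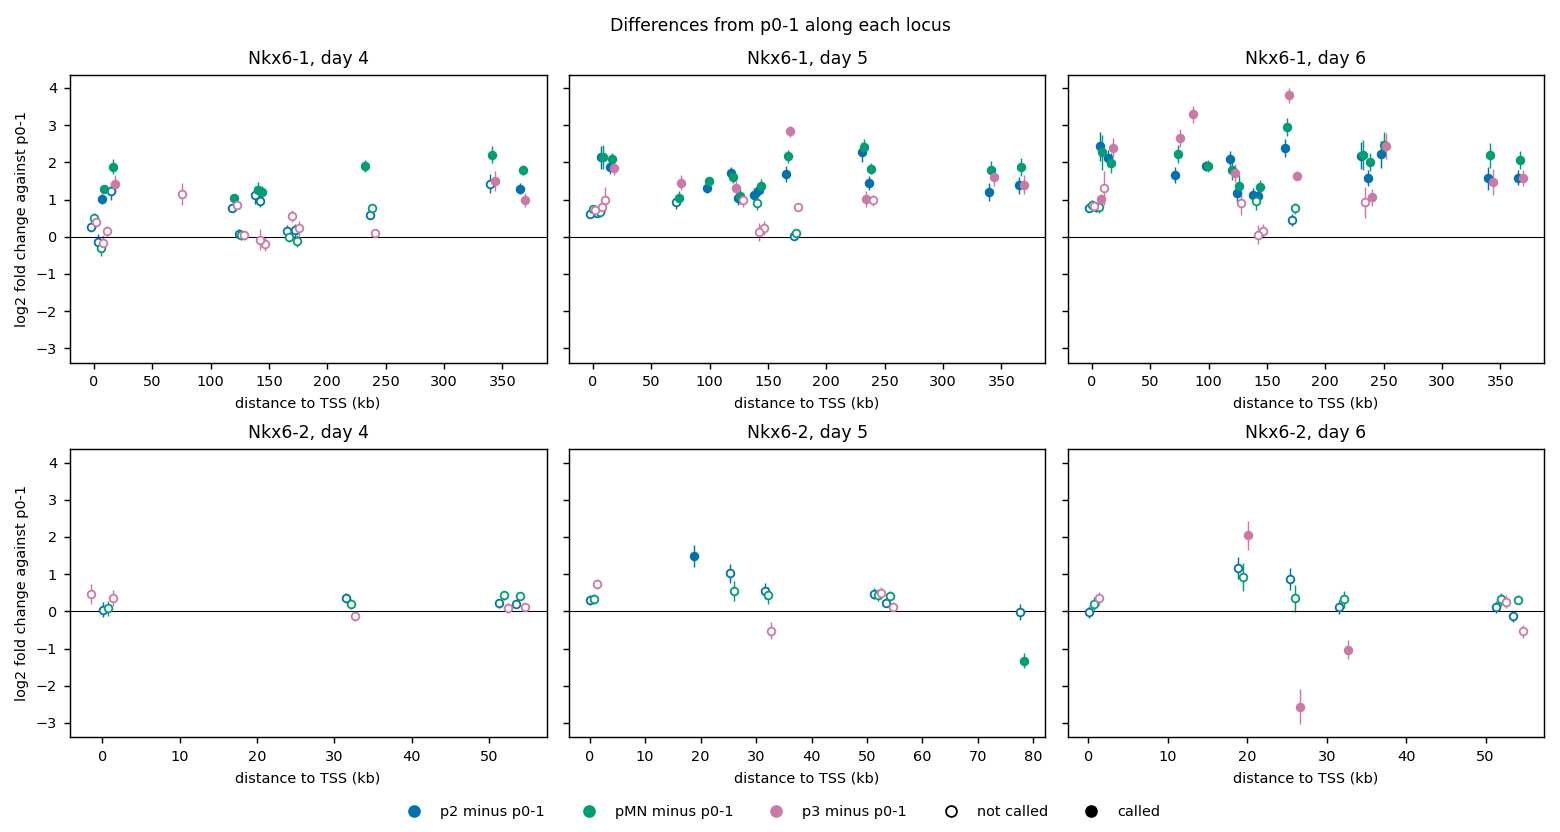
Log2 fold changes over p0-1 (points, with SE) of the tested Nkx6-1 and Nkx6-2 elements against distance to the TSS in kb at days 4, 5 and 6, for p2, pMN and p3, which are shifted sideways so that they can be told apart. Filled points were called. At day 6 the Nkx6-1 points are all above 0 for each type, while those of Nkx6-2 include called points on both sides for p3.

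Nkx6-1 +167285 (chr5:101496791-101498062) showed the largest difference between types. It had 48.5, 25.6 and 50.6 normalized counts in NMPs. At day 4 the types were close, with 143 to 256 (median 189) in p0-1, 181 to 249 (median 213) in p2, 173 to 227 (median 187) in pMN, and 289, 275, 279, 342 and 244 in p3, and pMN minus p0-1 was 0.00 ± 0.14 with an adjusted p of 0.99 (limma). At day 6 p0-1 had 29.4, 28.7, 49.0, 48.9 and 67.8, whereas p2 had 164 to 398 (median 285), pMN 343, 434, 346 and 563, and p3 744, 684, 830.4 and 770.0. The day 6 groups did not overlap except for p2 with pMN. Folds over p0-1 at day 6 were 2.39 ± 0.24 for p2, 2.95 ± 0.24 for pMN and 3.80 ± 0.21 for p3, with adjusted p of 0.00019, 2.4e-05 and 2.6e-07. Its p0-1 samples averaged 44.8 at day 6, so in these comparisons it passed the filter on low values only through the other type. The p2 call was lost without replicate 1 (0.012) or 2 (0.054) of each condition.

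This spread arose in both directions. From day 4 to 6 the element fell by 1.88 ± 0.22 in p0-1 (adjusted p 8.3e-06) and rose by 1.07 ± 0.14 in pMN (1.3e-05) and 1.37 ± 0.11 in p3 (8.9e-07), and in p2 the difference was 0.35 ± 0.18 (0.088, limma), where the medians of all elements tested were 0.24, 0.24, 0.18 and 0.26 in the same order. Without replicate 3 of each condition the pMN value was 0.79, short of 2-fold. For Nkx6-1 +167285 the change of the pMN minus p0-1 difference between days was 2.95 ± 0.26 with an adjusted p of 6.0e-07. At 100 nM SAG alone, day 6 values were 257, 234 and 164 in p2, 343 and 434 in pMN, and 744 and 684 in p3, so that the types kept their order at a shared concentration. This order at 100 nM was not tested.

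Of the Nkx6-1 elements, 4 of 15 tested had a pMN minus p0-1 difference that grew from day 4 to 6, against 2.83% of all elements tested. Besides +167285 they were +73586 (1.87 ± 0.33, adjusted p 0.00076), and, chosen after their values were seen, +238403 (1.24 ± 0.23, 0.0013) and +126258 (1.33 ± 0.30, 0.0061; limma). With single libraries left out in turn the count ranged from 3 to 5, and +126258 was lost wherever it was 3. Without replicate 2 of each condition it was 1 (+167285), without replicate 3 it was 3, and without replicate 1 it was 6. In the same order, 98 of 31598, 518 of 30588 and 711 of 31479 of all elements were called higher. Over both genes, 5 of 24 members tested had a difference that changed between days, against 12.4% of all elements.

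Nkx6-1 +73586 (chr5:101590073-101592178) had 9.70, 2.70 and 14.0 normalized counts in NMPs and 75.3, 105, 174, 114 and 199 in p0-1 at day 6, against 357 to 492 (median 439) in p2, 581, 722, 564 and 705 in pMN, and 1070.2, 823, 865 and 725 in p3. The order of the means ran from p0-1 to p3, and pMN and p3 did not overlap at day 6. Folds over p0-1 were 1.66 ± 0.21, 2.23 ± 0.24 and 2.65 ± 0.24, with adjusted p of 0.00057, 0.00011 and 6.8e-06 (limma), and the p2 call was lost without replicate 1 (0.016) or 2 (0.048) of each condition.

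Nkx6-1 +84971 (chr5:101579310-101580170) was highest in p3 at day 6. Its p3 samples at day 6 had 269, 227, 204 and 278 normalized counts, while pMN had 34.1, 31.9, 20.0 and 36.2, p0-1 had 11.8, 7.93, 12.7, 18.6 and 27.1, and p2 had a median of 41.8. Even in p3 it had 14.1 to 50.2 at day 4 and 81.6, 72.6, 96.7, 76.9 and 136 at day 5. It was higher in p3 by 3.29 ± 0.23 over p0-1 (adjusted p 1.1e-06) and by 2.60 ± 0.19 over pMN (7.2e-06), and rose by 2.82 ± 0.25 from day 4 to 6 in p3 (2.0e-06, limma). It passed the filter on low values only through these samples. The Foxa2 and Shh elements described above were also highest in p3 at day 6, and their part in this was not tested.

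Nkx6-1 +250113 (chr5:101414188-101415009) opened late in p2, pMN and p3. It had 4.85, 5.40 and 4.31 normalized counts in NMPs and at most 41.9 in any day 4 sample, and at day 6 it had 27.1, 8.92, 55.8, 47.8 and 29.0 in p0-1, 79.2 to 255 (median 233) in p2, 265, 159.6, 255 and 214 in pMN, and 252, 157, 281 and 193 in p3. From day 4 to 6 it rose by 2.78 ± 0.27 in p2 and 3.31 ± 0.23 in p3, with adjusted p of 3.7e-07 and 2.9e-07. Over p0-1 at day 6 it was higher by 2.21 ± 0.36, 2.47 ± 0.34 and 2.44 ± 0.34, with adjusted p of 0.0017, 0.00038 and 0.00017 (limma). In these comparisons it passed the filter on low values only through the day 6 samples of p2, pMN and p3. The p2 call was lost without replicate 1 (adjusted p 0.026) or 2 (0.11) of each condition.

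At days 4 and 5, the Nkx6-1 elements called between p3 and pMN were each lower in p3. At days 4, 5 and 6, 4 of 15, 4 of 18 and 3 of 19 Nkx6-1 elements were lower in p3, against 6.05%, 12.1% and 15.5% of all elements tested, so that the day 6 share was near that of all elements. At day 6 1 was higher (+84971), against 10.4%. Medians were -0.48, -0.28 and -0.08, and those of all elements 0.07, 0.08 and 0.01.

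Nkx6-1 +8798 (chr5:101655125-101656702), the intergenic element just past the gene, had 71.5, 68.8 and 60.3 normalized counts in NMPs. At day 5 it had 75 to 293 (median 203) in p0-1, 696 to 810 (median 779) in p2, 741, 730.1, 855, 749 and 791 in pMN, and 304, 275, 433, 301 and 441 in p3. Values in p2 and pMN overlapped and lay above all others, and p3 overlapped p0-1. It was higher in p2 than in p0-1 by 1.02 ± 0.13 at day 4, 2.14 ± 0.30 at day 5 and 2.43 ± 0.38 at day 6, with adjusted p of 0.0033, 0.00053 and 0.0015. These p2 calls were lost without replicate 1 or 2 of each condition, and that at day 4 also without replicate 3. Between p3 and pMN it was lower by -1.14 ± 0.12 at day 4 and -1.14 ± 0.13 at day 5 (4.1e-06 and 5.7e-06), and -0.97 ± 0.15 at day 6 was short of 2-fold. In p0-1 it fell by 1.40 ± 0.38 from day 4 to 6 (0.0074, limma), a call that was lost with replicate numbers blocked (0.013) and without any of replicates 1, 2 and 3.

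Nkx6-1 +232438 (chr5:101431512-101433035) had the same order of types. At day 6 it had 94.2, 91.2, 393, 281 and 348 normalized counts in p0-1, 599 to 1146 (median 1036) in p2, 1026, 1031, 911 and 962 in pMN, and 503, 383, 419 and 315 in p3. The pMN samples lay within the range of p2 and above all p3 samples. It was lower in p3 than in pMN by -1.79 ± 0.19 at day 4 and -1.27 ± 0.13 at day 6, with adjusted p of 3.6e-06 and 3.8e-05. This element rose with day also in p0-1, by 1.91 ± 0.35 (0.00051, limma), and in p2 by 2.63 ± 0.19 (1.9e-08). At day 4 it averaged 51.1 in p3 and 46.1 in p0-1. The day 4 call against pMN and the rise in p0-1 therefore passed the filter on low values only through the higher group.

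Nkx6-1 +140408 was lower in p3 than in pMN at day 4, by -1.33 ± 0.20 with an adjusted p of 0.00014 (limma), its p3 samples having 297, 281, 649, 496 and 586 normalized counts against 840 to 1362 in pMN. The call was lost without replicate 1 of each condition (-1.17, adjusted p 0.018). At day 6 the difference was -0.90 ± 0.14 and was not called. Nkx6-1 +144351 (chr5:101518917-101521804), chosen after its values were seen, had the highest single value of the members, 3974 in pMN at day 6, and at that day had 3334, 3974, 3200 and 3863 in pMN, 2863 to 3396 in p2, 1817, 1674, 1608 and 1252 in p3, and 925, 1254, 1619, 1460 and 2049 in p0-1. Its p3 and p0-1 samples overlapped and all lay below p2 and pMN.

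Nkx6-1 +16279, which fell from NMPs in p0-1, had at least 119 normalized counts in every p2, pMN and p3 sample. At day 6 it had 56.5, 23.8, 39.7, 64.1 and 23.2 normalized counts in p0-1, 160 to 290 (median 200.4) in p2, 156, 223, 162 and 223 in pMN, and 262, 225, 269 and 259 in p3. Every p0-1 sample lay below all others. Folds over p0-1 were 2.10 ± 0.24, 1.98 ± 0.27 and 2.39 ± 0.26, with adjusted p of 0.00033, 0.00035 and 2.1e-05 (limma). Since p0-1 averaged 41.5, the element passed the filter on low values in these comparisons only through the other type. The p2 call was lost without replicate 1 or 2 of each condition. Without replicate 3 the pMN comparison did not pass the filter on low values.

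From day 4 to 6, where the median of all elements tested was 0.24, 0.26, 0.24 and 0.18 in p0-1, p2, pMN and p3, Nkx6-1 elements rose in 2 of 13, 7 of 17, 8 of 18 and 10 of 18 tested, against 14.6%, 17.4%, 17.7% and 16.6%. In p0-1 2 fell, +167285 and +8798, against 7.17%. At Nkx6-2, 0 of 5, 1 of 5, 1 of 5 and 1 of 5 rose. In all, 14 of 25 members tested were called in at least 1 type, against 38.6% of all elements. Without replicate 2 of each condition, 5 and 6 Nkx6-1 elements rose in p2 and p3, against 5309 of 32015 and 4838 of 31337 of all elements.

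**Figure D4:**
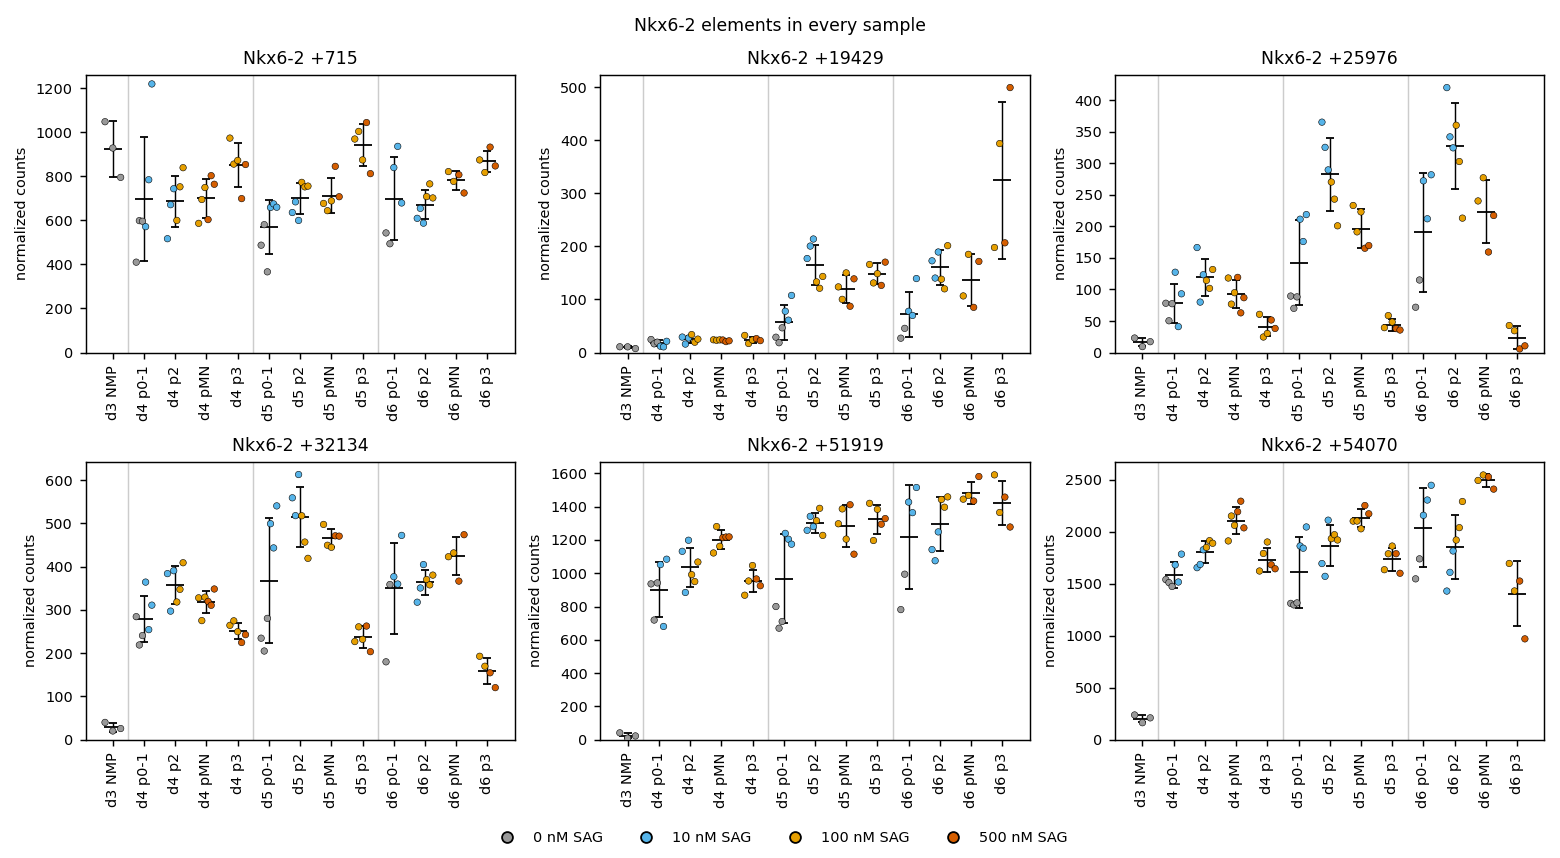
Normalized counts of 6 Nkx6-2 elements in every sample, colored by SAG concentration, with the mean and SD of each day and cell type. The elements +51919 and +54070 are higher in all NPs than in NMPs, +25976 and +32134 are low in p3, and +19429 is highest in p3 at day 6.

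At days 4, 5 and 6, 0 of 6, 3 of 7 and 3 of 6 Nkx6-2 elements tested were called between some pair of types, against 11.5%, 26.8% and 33.7% of all elements. Of those tested, 1 of 7 was higher in p2 than in p0-1 at day 5, where 3.07% of all elements tested were, and at days 4 and 6 none of 4 and none of 6 was. In pMN none was higher and 1 of 6 was lower at day 5, where 4.41% of all elements tested were lower. Against p2, 1 of 7 was lower in pMN at day 5, where 2.31% of all elements tested were called in either direction. Between p3 and p0-1 none was called at days 4 and 5, and at day 6 1 of 6 was higher and 2 were lower, where 12% and 11.8% of all elements tested were. Against pMN, none was called in p3 at day 4, and 1 of 6 and 2 of 6 were lower at days 5 and 6, against 12.1% and 15.5% of all elements.

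Nkx6-2 +25976 (chr7:139556306-139557336), in intron 9 of Inpp5a, had 23.0, 9.44 and 17.2 normalized counts in NMPs. At day 5 it had 233, 191, 223, 165 and 169.5 in pMN and 39.5, 58.6, 48.4, 38.0 and 35.7 in p3, and at day 6 it had 240.3, 277, 159 and 217 in pMN, 213 to 420 (median 333) in p2, 71.8, 115, 272, 212 and 282 in p0-1, and 42.9, 34.6, 5.77 and 10.7 in p3. The p3 samples lay below all others, and the lowest pair in p3 at day 6 was from 500 nM SAG. It was lower in p3 than in pMN by -1.90 ± 0.15 at day 5 and -2.91 ± 0.39 at day 6, with adjusted p of 2.0e-07 and 0.00020, and lower than in p0-1 by -2.57 ± 0.47 at day 6 (0.0011, limma). That last call was lost with voom (adjusted p 0.017) and without replicate 3 of each condition (0.018). Its p3 samples averaged under 100 at both days, so in these calls the element passed the filter on low values only through pMN or p0-1. In p2 it rose by 1.36 ± 0.17 from day 4 to 6 (5.0e-06).

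Nkx6-2 +32134 (chr7:139549343-139551984), in the same intron, followed p3 downward. It had 423, 432, 367 and 474 normalized counts in pMN at day 6, 180.1, 359, 377, 360.0 and 472 in p0-1, 318 to 405 (median 364) in p2, and 193, 169.9, 155 and 120.4 in p3. The lowest p0-1 sample fell within the p3 range. The p3 minus pMN difference was -0.33 ± 0.09, -0.94 ± 0.08 and -1.35 ± 0.15 at days 4, 5 and 6, with adjusted p of 0.015, 6.8e-07 and 5.9e-05, and was called at day 6. Its change from day 4 to 6 was -1.03 ± 0.16 with an adjusted p of 0.00012 (limma), where 6.09% of all elements tested had a change in this direction. Leaving out replicate 3 of p3 at 500 nM, day 6, left 0 members called in that comparison, and without replicate 3 of each condition its adjusted p was 0.014. Against p0-1 the day 6 fold was -1.03 ± 0.25 (0.0060), and it was not called with voom (0.010), with replicate numbers blocked (0.012) or without replicate 1 (0.015) or 3 (0.11) of each condition.

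Nkx6-2 +19429 (chr7:139562940-139563797), in intron 11 of Inpp5a, opened late. It had 10.9, 10.8 and 7.54 normalized counts in NMPs and at most 33.9 at day 4. At day 6 it had 27.1, 45.6, 77.8, 69.9 and 139 in p0-1, 120 to 201 (median 157) in p2, 107, 185, 85.2 and 172 in pMN, and 198, 394, 207 and 499 in p3. The p3 samples lay above pMN and p0-1, and the lowest of them overlapped p2. In p3 it rose by 3.13 ± 0.27 from day 4 to 6 (adjusted p 1.7e-06), and over p0-1 it was higher by 2.04 ± 0.40 at day 6 (0.0017). Over pMN the day 6 fold was 1.13 ± 0.34 with an adjusted p of 0.021, and blocking on replicate number gave 1.13 ± 0.12 with 1.7e-05, which was called (limma). In p2 it was higher than in p0-1 by 1.49 ± 0.29 at day 5 (0.0030), a call lost without replicate 1 or 2 of each condition. In these calls against day 4 and p0-1 it passed the filter on low values only through the p3 samples at day 6 and the p2 samples at day 5.

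Nkx6-2 +78278 (chr7:139504000-139505038), in intron 4 of Inpp5a, was lower ventrally at day 5. It had 85 to 223 (median 159) normalized counts in p0-1, 98 to 191 (median 151) in p2, 55.8, 46.0, 49.7, 39.5 and 61.3 in pMN, and 20.6, 22.9, 32.5, 14.6 and 24.9 in p3. No pMN or p3 sample reached p0-1 or p2. The pMN folds were -1.33 ± 0.21 to p0-1 and -1.31 ± 0.16 to p2, each with an adjusted p of 0.00019 (limma). The p3 comparisons did not pass the filter on low values. With a pMN mean of 50.5, the pMN comparisons passed it only through the p0-1 and p2 samples. Nkx6-2 +54070 had 1693, 1429, 1524 and 969 in p3 and 2491, 2544, 2525 and 2408 in pMN at day 6, a difference of -0.85 ± 0.15 that was short of 2-fold.

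**Figure D5:**
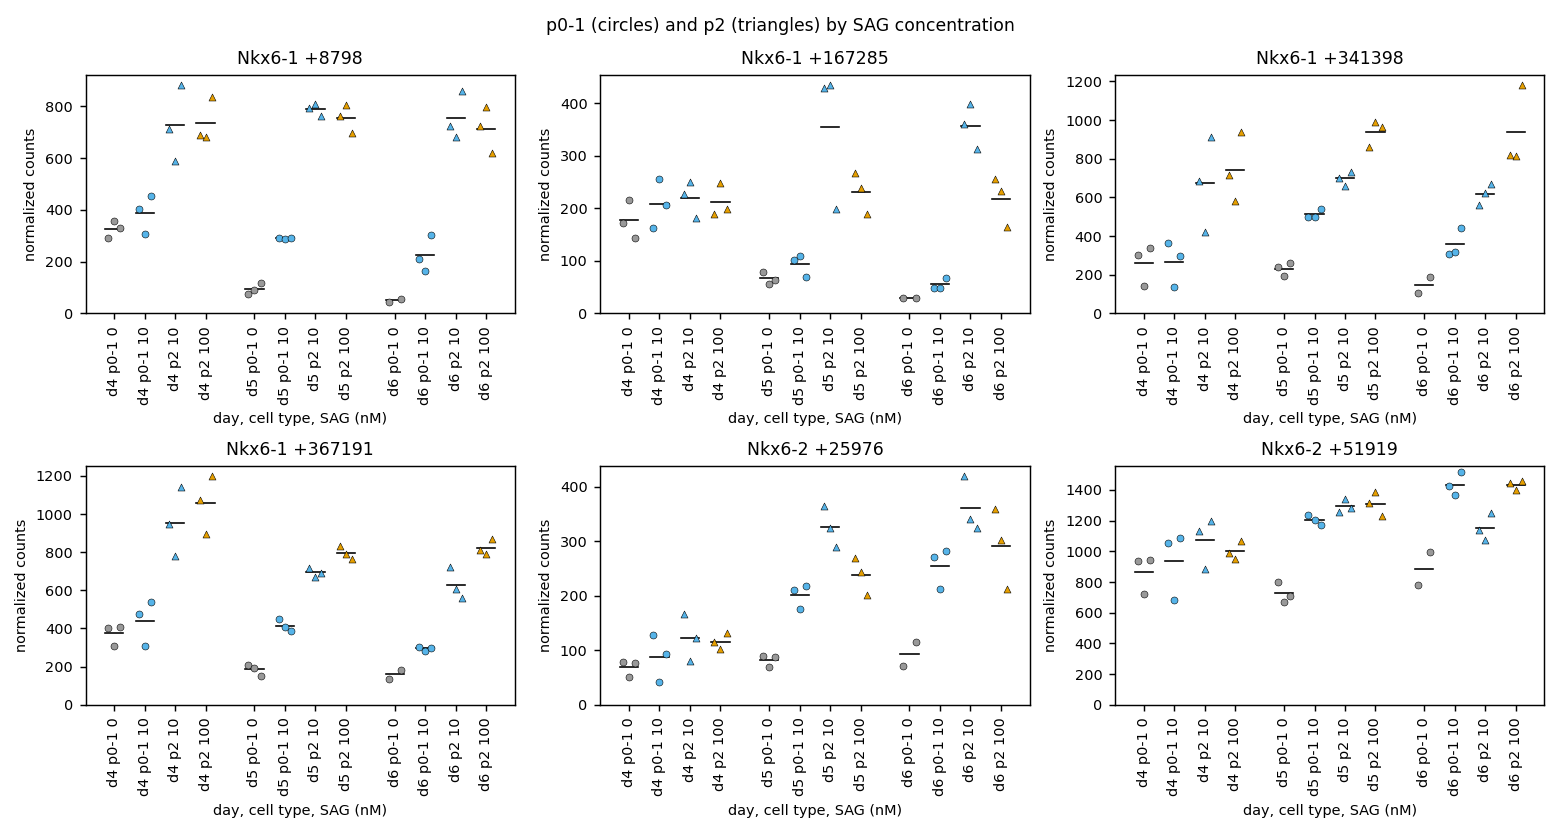
Normalized counts in every p0-1 (circles) and p2 (triangles) sample by day and SAG concentration in nM, with lines at the means, for 4 Nkx6-1 and 2 Nkx6-2 elements. At day 5 all 3 p0-1 samples at 10 nM lie above all 3 at 0 nM for +8798, +341398, +367191, +25976 and +51919, and p2 at the same 10 nM lies above p0-1 for +8798.

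SAG concentration was compared within a cell type at day 5. Without a replicate block, 0 members were called by limma in any of the 4 comparisons, and also 0 with voom. Of all elements tested, 0.00318%, 0%, 0% and 0% were called, and 24 member results had an unadjusted p under 0.05. In all, 0 of 25 members were called without the block, against 0.00251% of all elements. Replicate numbers paired in the p0-1 and p2 comparisons by the rule given below, and this fit left the pairing out. With the block, 310 of 31401 elements were called in p0-1 and 507 of 32103 in p2. Of the 24 results, 16 were among the 18 members tested in p0-1 at 10 against 0 nM, where 4741 of 31401 elements had such a p. All 18 were above 0 there, with a median of 0.77 at Nkx6-1 and 0.65 at Nkx6-2 and of 0.01 over all elements. In p2, pMN and p3 the medians of the next step in concentration were -0.11, -0.01 and 0.07 at Nkx6-1.

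In p0-1 at day 5, Nkx6-1 +8798 had 74.7, 89.7 and 117 normalized counts at 0 nM and 293, 289 and 291 at 10 nM, a fold of 1.53 ± 0.16 with an adjusted p of 0.025. Nkx6-1 +367191 had 210.1, 195 and 151 against 451, 409 and 385 (1.12 ± 0.14, 0.028), and Nkx6-1 +341398 had 239, 192 and 259 against 497, 499 and 542 (1.13 ± 0.13, 0.026). Nkx6-2 +25976 had 89.5, 70.1 and 88.3 against 211, 176 and 219 (1.18 ± 0.15, 0.028; limma), and Nkx6-2 +51919 had 800.1, 669.9 and 710.2 against 1240, 1204 and 1175 (0.72 ± 0.08, 0.025). In each case the concentrations did not overlap. Blocking on replicate number called 5 members, the 4 of these above 2-fold and Nkx6-2 +32134, with adjusted p between 1.0e-05 and 3.2e-05, and so were 310 of 31401 elements.

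Types sorted from the same 10 nM dish differ in sort and not in SAG. At days 4, 5 and 6, 0 of 14, 1 of 16 and 10 of 17 Nkx6-1 elements tested were higher in p2 than in p0-1, against 0%, 0.00621% and 5.67% of all elements tested. Blocked on replicate number, these were 5, 7 and 10. Over all elements the block gave 758 of 29490, 1416 of 32213 and 2172 of 32167 higher. At day 4, 9 had an unadjusted p under 0.05 in limma and voom called 0. No Nkx6-2 element was called without the block, and 1 was with it at day 5. Over both genes and the 3 days, 10 of 25 members tested were called, against 5.04% of all elements. The all-element medians were -0.17, -0.06 and -0.12.

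Nkx6-1 +8798 was the element called at day 5. It had 293, 289 and 291 normalized counts in p0-1 and 793, 809.9 and 764 in p2 of that dish, a fold of 1.40 ± 0.08 with an adjusted p of 0.0024 (limma), and at day 6 it had 209.6, 165 and 305 against 723, 680.2 and 861 (1.72 ± 0.21, 0.0014). At day 5 leaving out replicate 3 of p2 gave 7 called members, and leaving out any other library gave 0. At day 6 the count was 5 without replicate 1 of p2 and 6 without replicate 2 of p2, and without replicate 1 or 2 of both types it was 0, as was the count over all elements. Nkx6-1 +167285 had 49.0, 48.9 and 67.8 in p0-1 at day 6 and 360.3, 398 and 314 in p2 (2.46 ± 0.18, 0.00051), Nkx6-1 +16279 was higher by 2.22 ± 0.31 (0.0022), and Nkx6-1 +367191 by 1.05 ± 0.13 (0.0013). At +167285 and +16279 the p0-1 samples were under 100, so these elements passed the filter on low values only through p2.

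Elements of the genes that act with NKX6 factors were read from lists of the neural tube network. Between pMN and p0-1 at day 6, 9.28% of all elements tested were higher in pMN and 3.06% lower, with a median of -0.08. The elements of the ventral factors Olig1, Olig2, Nkx2-9 and Foxa2 were higher in 17 of 25 tested and lower in 1, with a median of 1.59. Those of the dorsal and intermediate factors Pax6, Pax7, Dbx1, Dbx2, Irx3 and Irx5 were higher in 1 and lower in 11 of 48, with a median of -0.49. Hedgehog pathway elements were higher in 9 and lower in 6 of 43, and those of the Groucho co-repressors Tle1 to Tle4, through which NKX6 proteins repress, were higher in 11 and lower in 0 of 36. From pMN to p3 at day 6, where 10.4% of all elements tested were higher and 15.5% lower, the same ventral list was higher in 13 and lower in 14 of 36 (median -0.45), and the Groucho list was higher in 5 and lower in 15 of 40 (-0.43). The dorsal and intermediate list was higher in 3 and lower in 14 of 47 (-0.32), and the Hedgehog list was higher in 2 and lower in 9 of 39 (-0.47), where the median of all elements was 0.01.

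Among NP conditions, other Nkx6-1 elements followed the start site to different degrees. Over 24 condition means, which share libraries and depth, and with +299443, +120383 and +304432 chosen after their values were seen, Pearson's r with -132 was 0.93 for +299443, 0.91 for +120383, 0.86 for +16279 and 0.85 for +341398, 0.55 for +140408 and -0.11 for +304432. At Nkx6-2, r with +715 was 0.59 for +51919, 0.23 for +54070, -0.33 for +25976 and -0.61 for +78278. Among the 31744 elements with a mean above 100, members of both sets left out, the most like Nkx6-1 -132 was an intergenic element on the same chromosome, annotated to Gpat3 (chr5:101020532-101021583), with r of 0.962 over all 25 conditions, followed by elements annotated to Kazn (0.898), Stard13 (0.897), Btg1 (0.886) and Dusp6 (0.881). For Nkx6-2 +715 the highest were elements annotated to Cmtm7 (0.816), Klhdc4 (0.812) and Gm5148 (0.808).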

How the data were processed

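The authors used the nf-core/atacseq pipeline with mm10 and MACS, counted reads in consensus elements, and with DESeq2 made the deposited log2 values, a variance-stabilizing transformation of counts divided by size factors. Coordinates and the nearest TSS come from the deposited HOMER table. The transformation was inverted, and 100% of values below 1000 reads gave whole reads within 0.001. Depth was 9298160 to 29985325 reads in elements per sample (median 20254011).

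Linear models of the log2 values were fitted with limma 3.58.1 in R 4.3.3, two-sided, to only the groups compared, on elements with a mean above 100 normalized counts, and p was adjusted over all of them. Calls needed an adjusted p under 0.01 and a fold above 2 in mean normalized counts (pseudocount 1). The fit was tested on simulated data. Alternatives were no filter, a replicate block, voom on the recovered reads, median centering, and replicates left out. The labels do not say whether replicates are separate cultures, the study describes them as independent differentiations of the line, and p-values measure the spread between these samples. Replicate numbers of the titles were taken to pair samples where, with at least 3 pairs, every same-number correlation of deviations was above 0.1, which held in 17 of 32 comparisons; the median was 0.618, 0.569 and 0.565 at days 4, 5 and 6. In groups pooled over SAG, a replicate number can occur at each concentration, and samples that share it may not be independent. The main fits counted them as separate samples, also where numbers paired, and only the block took the pairing into account. For 15 samples the description gives another number. Named elements were, per gene, the nearest to the TSS, the highest mean, and the largest calls between types, from NMPs and between days. The members and lists were chosen with earlier results of these data known. Centers were read from GRCm38.p6, gene positions from GENCODE vM21, and local alignments made with Biopython 1.88 (match 2, mismatch -3, gap -5, extension -2).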

Additional observations from a re-analysis of the deposited data

Results flagged for a closer look

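In groups of 4 to 10 samples of the named elements, 228 groups were looked at and 5 samples stood apart by Dixon's criterion, which chance meets in about 1 in 20 groups. At Nkx6-1 +232438 the lowest p2 sample at day 6 (100 nM SAG, replicate 3) had 599 normalized counts, and at Nkx6-1 +140408 the lowest p2 sample at day 6 (10 nM, replicate 1) had 2024. At Nkx6-1 +16279 the lowest p3 sample at day 4 (100 nM, replicate 2) had 140.3 and the highest pMN sample at day 5 (500 nM, replicate 3) had 274. At Nkx6-2 +32134 the lowest p0-1 sample at day 6 (0 nM, replicate 2) had 180.1.

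A difference between types that itself changed from day 4 to 6 was found for 5 members by the interaction term in limma. The pMN minus p0-1 difference grew by 1.24 at Nkx6-1 +238403, 2.95 at Nkx6-1 +167285, 1.33 at Nkx6-1 +126258 and 1.87 at Nkx6-1 +73586, and the p3 minus pMN difference moved by -1.03 at Nkx6-2 +32134.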

How the results depend on the processing

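Counts of members called between types were 8, 16 and 20 at days 4, 5 and 6, and stayed within 1.5 times of these under each alternative but the omission of the filter, which gave 26 at day 5. Without the filter, 28 in place of 16 were called from NMPs to day 4, 26 in place of 14 from day 4 to 6, and 13 in place of 5 for changed differences. With the replicate block, 5 in place of 0 were called between SAG concentrations. Leaving out replicate 1, 2 or 3 of every condition gave 8 to 9, 14 to 15 and 17 to 20 between types, 14 to 17 from NMPs, 10 to 14 from day 4 to 6, 0 to 0 between concentrations, 0 to 11 in place of 10 in the 10 nM dish, and 3 to 7 for changed differences. By title, pMN and p3 at day 6, pMN and p3 at 500 nM at day 5, and p0-1 at 0 nM at day 6 hold no replicate 1. The p3 minus pMN fit at day 6 was therefore the same without it. Leaving out replicate 1 or 2 of p2 at day 6 alone, chosen after seeing the data, gave 5 and 6 in the 10 nM dish. Of 116 folds considered, 89 were called: 2 of these calls were lost with voom, 2 with the block (Nkx6-2 +32134 in p3 minus p0-1 at day 6, and Nkx6-1 +8798 from day 4 to 6 in p0-1), 3 with centering, and 22, 23 and 14 without replicates 1, 2 and 3, with no change of sign. Another 3, 4 and 5 of the 89 were not tested in those fits, since the elements no longer passed the filter: Nkx6-1 +250113 (days in p2, replicates 1 and 2; days in p3, and p3 and pMN over p0-1 at day 6, replicate 2), Nkx6-1 +16279 (pMN at day 6, replicate 3), Nkx6-1 +73586 (p3 from NMPs, replicate 3), Nkx6-2 +19429 (days in p3, replicate 3), Nkx6-2 +25976 (p3 minus p0-1 at day 6, replicate 1) and Nkx6-2 +78278 (pMN minus p2 at day 5, replicates 1 and 3; pMN minus p0-1 at day 5, replicate 3). Between p2 and p0-1 every named call at days 5 and 6, the 10 nM dish included, was lost without replicate 1 and without replicate 2, and at day 4 without any of them. The lost calls among the others were Nkx6-1 +367191 (p3 at day 4, any replicate; pMN at day 6, replicate 3), Nkx6-1 +341398 (p3 at day 4, replicate 3), Nkx6-1 +140408 (pMN at day 4, replicate 3; p3 minus pMN at day 4, replicate 1; days in p2, replicate 2), Nkx6-1 +232438 (pMN at day 6, replicates 2 and 3), Nkx6-1 +167285 (days in pMN, replicate 3), and the changed differences of Nkx6-1 +126258 and +238403 (replicates 2 and 3), Nkx6-1 +73586 (replicate 2) and Nkx6-2 +32134 (replicate 3), besides those given with the results. The sign changed for Nkx6-1 +167285, pMN minus p0-1 at day 4 (-0.0399 to 0.0841 over the replicates left out), and for Nkx6-2 +715 in pMN minus NMP with centering (0.0269); none of these folds was called. The causes were not tested.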
